A study of Mus musculus with 30 samples.

Results

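The comparison described here set 3 mouse retinas that had received endothelial colony-forming cells (ECFC) together with CD34+ cells against 3 that had received CD34+ cells alone, all by injection into the vitreous on postnatal day 5 (P5). The 6 retinas were taken by their sample titles from 30 retinas in 10 groups of 3, and every probe set of the array was used. The contrast was chosen to ask what adding ECFC to CD34+ cells changes in the retina. The groups also differed in sex and in signals of other tissues, given below. The ECFC+CD34 pups received 100000 ECFC and 10000 CD34+ cells (110000 cells in all), and the CD34 pups 10000 CD34+ cells. Adding ECFC therefore also raised the number of cells injected, and the kind and the number of cells cannot be told apart. Values of other groups are given where they help: ECFC alone at P5 (100000 cells), saline at P5, the same pair of cell treatments injected at P12, untreated oxygen-induced retinopathy (OIR) and untreated normoxia. All groups except normoxia breathed 75% oxygen for 5 days from P7. The age at collection is not settled: all samples are labelled P17, the protocol names both P12 and P17, and the design text ties injection at P5 to collection at P12. Strain, sex and the species or donor of the injected cells are not given in the labels. Each array held the RNA of 1 retina from 1 pup. The p-values below measure the spread between pups and arrays, estimated over all 10 groups unless other arrays are named.

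In OIR, high oxygen stops the growth of the retinal capillaries and closes some that have formed, and the retina becomes hypoxic once the pup returns to room air. ECFC are circulating progenitors that give rise to endothelium. CD34+ cells are rich in blood-forming progenitors and are thought to act on vessels largely through secreted factors. The title of the series names pericyte coverage of vessels as its subject. The inner retina holds the ganglion, amacrine and bipolar cells that carry the signal of the photoreceptors to the brain. Pigment cells lie outside the neural retina, in the pigment epithelium, choroid, iris and ciliary body, and make melanin on a scaffold of Pmel fibrils with the enzymes Tyr, Tyrp1 and Dct. MITF, the main transcription factor of pigment cells, is known to bind an element called the M-box in promoters of this pathway.

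Values are the deposited log2 values of the arrays. A probe set was called at limma's Benjamini-Hochberg adjusted p under 0.05, from 1 mean per group over all 30 arrays and adjusted over 22626 probe sets. Differences are ECFC+CD34 minus CD34 on the log2 scale, ± SE of that fit, and adjusted p-values printed without a tool are from it. Each gene of a list is represented by whichever of its probe sets was brightest on average. Transcripts that should be absent read up to 5.70 (Xist on male arrays) and up to 4.83 (Eif2s3y on female arrays), so a difference that starts from such levels is a lower bound on the change.

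The retinas carried their defining cells: the mean of 26 rod genes was 12.97, 12.96 and 13.10 in the ECFC+CD34 retinas and 13.04, 12.72 and 12.93 in the CD34 retinas. Arrays of the ECFC+CD34 group correlated with each other at r from 0.989 to 0.993, those of the CD34 group at r from 0.963 to 0.990, and pairs across the groups at r from 0.966 to 0.986. By Xist and Eif2s3y all 3 ECFC+CD34 pups were female, while CD34 array 1 came from a male and CD34 arrays 2 and 3 from females. Some arrays stood apart in genes of other tissues or cells. The mean of 16 lens genes was 11.45, 8.71 and 8.46 in the ECFC+CD34 retinas, against 7.26, 13.26 and 13.12 in the CD34 retinas, so CD34 array 1 lacked the lens signal of the other CD34 arrays. The mean of 29 microglia and macrophage genes was 7.77, 7.50 and 7.41 in the ECFC+CD34 retinas, against 9.65, 7.38 and 8.06 in the CD34 retinas, where array 1 was the highest. The mean of 12 myelin genes was 5.94, 9.51 and 6.24 in the ECFC+CD34 retinas, against 5.85, 6.28 and 6.0 in the CD34 retinas, so ECFC+CD34 array 2 alone carried a myelin signal. What leaving out CD34 array 1, ECFC+CD34 array 2 or both changes is given below for the lists and for the calls of the named genes.

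**Figure D1:**
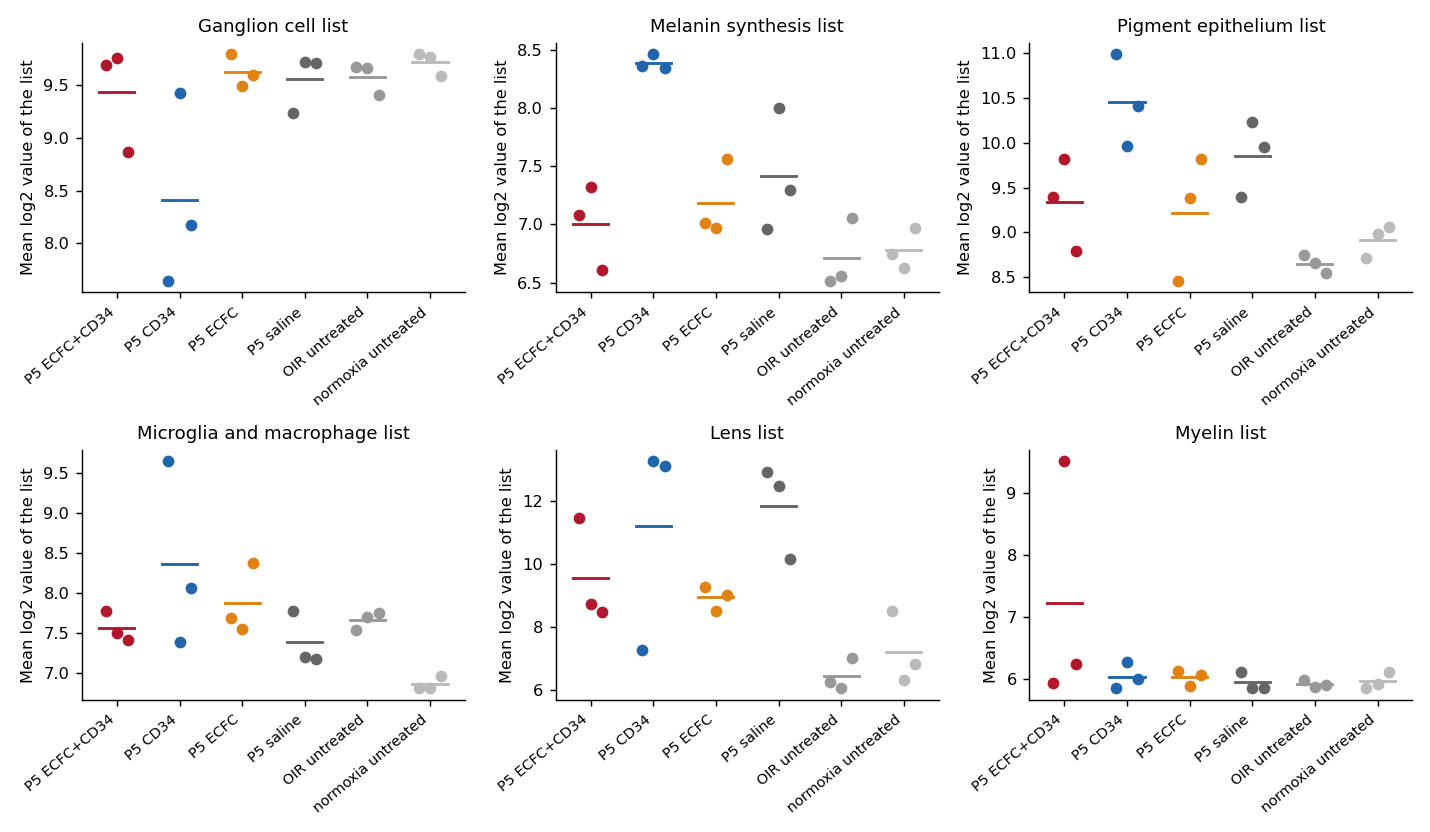
Mean deposited log2 value of 6 gene lists on each array (points) and the mean of each group (lines), for 6 groups of 3 retinas. The CD34 group is highest in the melanin list on all 3 arrays, CD34 array 1 (left point) is low in the ganglion cell and lens lists and high in the microglia list, and ECFC+CD34 array 2 (middle point) alone is high in the myelin list.

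Promoters of pigment genes are shown because melanin genes moved together in this contrast. The RefSeq promoter table (build GRCm38.p6) was searched over the 250 bases before each start site for the M-box core TCATGTG on both strands (its other strand reads CACATGA). Of the 10 called melanin genes 6 had a promoter in the table, and 3 of these, Tyr, Tyrp1 and Dct, held the core. It was also found upstream of 1 of the 2 start sites listed for Trpm1, a channel gene of pigment cells and bipolar cells. It was not found in the window listed for Gpnmb, a gene of pigment cells and phagocytes that also fell. Counted by windows, 3 of the 9 of called melanin genes held the core, and of all 32851 promoter windows 3.25% did. A match describes the letters only. Each sequence is written 5′ to 3′ on the strand of its gene, with the core in capitals, and ends at the base before the start site.
Tyr, chr7:87493513-87493762, minus strand: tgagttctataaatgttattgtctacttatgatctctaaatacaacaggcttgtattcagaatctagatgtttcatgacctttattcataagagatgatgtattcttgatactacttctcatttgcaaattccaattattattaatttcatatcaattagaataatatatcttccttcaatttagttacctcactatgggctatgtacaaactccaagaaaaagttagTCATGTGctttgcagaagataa
Tyrp1, chr4:80833963-80834212, plus strand: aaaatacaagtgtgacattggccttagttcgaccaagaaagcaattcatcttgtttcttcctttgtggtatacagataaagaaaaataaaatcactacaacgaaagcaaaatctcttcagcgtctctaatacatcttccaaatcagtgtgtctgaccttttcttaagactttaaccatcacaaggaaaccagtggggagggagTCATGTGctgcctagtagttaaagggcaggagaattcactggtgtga
Dct, chr14:118052247-118052496, minus strand: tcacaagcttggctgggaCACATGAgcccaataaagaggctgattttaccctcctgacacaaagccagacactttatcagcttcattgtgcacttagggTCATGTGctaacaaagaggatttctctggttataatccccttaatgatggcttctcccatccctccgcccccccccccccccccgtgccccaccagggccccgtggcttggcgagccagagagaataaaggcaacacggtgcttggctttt
Trpm1, chr7:64153585-64153834, plus strand: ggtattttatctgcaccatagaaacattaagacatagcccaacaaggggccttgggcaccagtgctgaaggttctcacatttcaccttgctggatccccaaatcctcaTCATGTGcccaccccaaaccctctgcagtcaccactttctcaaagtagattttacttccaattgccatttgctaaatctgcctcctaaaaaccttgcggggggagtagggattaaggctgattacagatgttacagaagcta
Between the core and the start site lay 15 bases in Tyr, 40 in Tyrp1, 225 and 144 in Dct and 135 in Trpm1.

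At P5 the retinas given ECFC with CD34+ cells had higher levels of genes of inner retinal neurons than those given CD34+ cells alone. Levels were lower for genes of pigment cells and for a part of the genes of phagocyte lysosomes and lipid handling, stress responses and matrix. Of 29 genes of microglia and macrophages themselves 1 was called lower. Of 22626 probe sets 1659 were called (7.33%), 970 higher (4.29%) and 689 lower (3.05%), which together name 1191 genes. Large differences were mostly decreases: 261 called probe sets were lower by more than 2-fold and 112 were higher by more than 2-fold. The median difference over all probe sets was 0.01. Over the 12393 genes used for the lists 4.15% were called higher and 3.46% lower, and these shares stand as the background for each list. The spread behind these calls was estimated over all groups, and in some lists the CD34 group at P5 varied more than the others. The SD of its ganglion cell list mean was 0.92, against 0.50 in ECFC+CD34 and 0.28 in saline at P5. For the microglia list the SDs of these 3 groups were 1.16, 0.19 and 0.34. Where the CD34 group varied more, the SE of the fit can understate the spread of the 6 arrays. With the 12 arrays injected at P5 alone 113 probe sets were called, and with the 6 arrays of the contrast alone none was, although 4449 had an unadjusted p under 0.05 in the fit over all arrays. Without ECFC+CD34 array 1 the count was 795, and without ECFC+CD34 array 2 it was 617. Leaving out CD34 array 1 and ECFC+CD34 array 2 together, a setting chosen after seeing the data, gave 735 called probe sets, 219 of them higher. Of the 98 called genes named in the text 50 were called whichever of the 6 arrays was left out, and 11 of these also with the 12 arrays of P5 alone: Tfap2b and Ntng1, which were higher, and Sfrp1, Vit, Dct, Acta2, Aldh1a1, Gpr137b, Pdia6, Perp and Plvap, which were lower. Without both CD34 array 1 and ECFC+CD34 array 2, 45 of the 98 were called. Slc17a6, Tacr3, Dab1, Tfap2b, Cacnb4, Fgf12, Pcdh10, Kif5a, Rab3c, Ctsz and Loxl1 were called whichever single array was left out, but not without both.

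**Figure D2:**
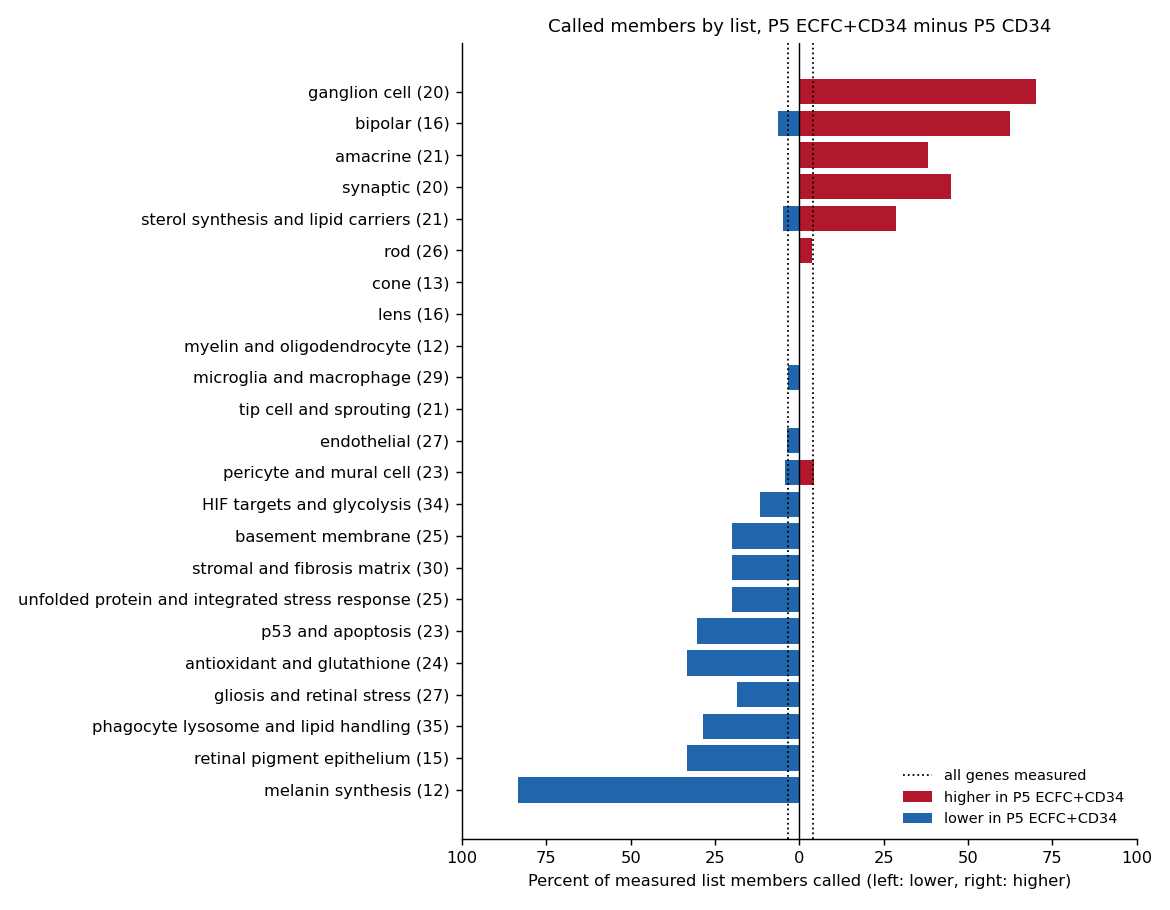
Percent of the measured members of each gene list (number in brackets) called higher (right, red) or lower (left, blue) in ECFC+CD34 than in CD34 retinas at P5, with dotted lines at the shares over all genes (4.15% higher, 3.46% lower). Inner retinal neuron lists extend to the right, up to 14 of 20 ganglion cell genes, and pigment, stress and matrix lists to the left, up to 10 of 12 melanin genes.

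Ganglion cells, the output neurons of the retina, had the largest share of genes called higher among the cell type lists. Of 20 measured ganglion cell genes 14 rose, none fell, and the median difference was 0.95, beside -0.006 over all genes. Slc17a6, the vesicular glutamate transporter of ganglion cells, read 10.45, 10.59 and 9.06 in the ECFC+CD34 retinas, against 5.49, 9.76 and 6.71 in the CD34 retinas. CD34 array 2 lay above ECFC+CD34 array 3, so the groups overlapped, and CD34 array 1 was by far the lowest. The difference was 2.71 ± 0.59 (6.56-fold, adjusted p = 0.0067), and 1.80 without CD34 array 1 (adjusted p = 0.04). Without both that array and ECFC+CD34 array 2 it was 1.52 (adjusted p = 0.16). Stmn2, a regulator of axonal microtubules, rose by 1.26 ± 0.28 (adjusted p = 0.0072), and Rbpms, an RNA-binding protein used to mark all ganglion cells, by 0.98 ± 0.24 (adjusted p = 0.015). Ebf1, a transcription factor of neurons, read 8.70, 8.90 and 8.22 in the ECFC+CD34 retinas, against 7.02, 8.47 and 6.98 in the CD34 retinas, a rise of 1.12 ± 0.27 (adjusted p = 0.013). The call of Stmn2 ended without ECFC+CD34 array 2, and those of Rbpms and Ebf1 without ECFC+CD34 array 1 or 2 or CD34 array 1 or 3. No ganglion cell gene had groups that did not overlap. The list mean was 9.69, 9.76 and 8.87 in the ECFC+CD34 retinas against 7.64, 9.43 and 8.18 in the CD34 retinas, where array 2 was above ECFC+CD34 array 3. The number of ganglion cell genes called depended on single arrays: it was 2 without CD34 array 1, 3 without CD34 array 3, 2 without ECFC+CD34 array 1 and 1 without ECFC+CD34 array 2. With CD34 array 1 and ECFC+CD34 array 2 both left out none was called and the median was 0.51. With the microglia list mean as a covariate, a setting chosen after seeing the data, 1 was called and the median was 0.63, and with the 12 arrays of P5 alone none was called. In bulk retinas fewer cells of a type and less RNA per cell cannot be told apart, here and in every list below.

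Most bipolar cell genes measured were called higher. Of 16 measured, 10 rose and 1 fell, with a median of 0.67, and in 11 the ECFC+CD34 arrays all lay above the CD34 arrays (10.2% of all genes do). Prkca, the protein kinase C used to mark rod bipolar cells, read 11.54, 11.43 and 11.64 in the ECFC+CD34 retinas, against 10.78, 10.94 and 10.998 in the CD34 retinas. All ECFC+CD34 arrays were above all CD34 arrays, and the 3 arrays of each group were close together. The difference was 0.63 ± 0.10 (1.55-fold, adjusted p = 0.00084) and stayed between 0.56 and 0.68 whichever array was left out. Gnao1, the G protein subunit that couples the glutamate receptor of ON bipolar cells to their channel, read 12.11, 12.09 and 11.93 in the ECFC+CD34 retinas, against 10.89, 11.59 and 11.31 in the CD34 retinas and rose by 0.78 ± 0.12 (adjusted p = 0.00072). Tacr3, the neurokinin B receptor found on OFF bipolar cells, read 8.18, 8.41 and 7.90 in the ECFC+CD34 retinas, against 5.82, 7.68 and 6.74 in the CD34 retinas, a rise of 1.42 ± 0.28 (adjusted p = 0.0034). Its arrays did not overlap, with CD34 array 1 the lowest. Trpm1, the channel that opens in ON bipolar cells and is also a pigment cell gene, went the other way, at 7.10, 6.84 and 6.97 in the ECFC+CD34 retinas, against 8.07, 9.36 and 8.65 in the CD34 retinas, and fell by 1.72 ± 0.35 (adjusted p = 0.0042). Both of its probe sets were called lower. Between 7 and 11 bipolar genes were called higher when single arrays were left out, 4 when CD34 array 1 and ECFC+CD34 array 2 both were, and none with the 12 arrays of P5 alone. The median was 0.40 without CD34 array 1.

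Amacrine and synaptic genes followed. Of 21 amacrine genes 8 rose and none fell (median 0.47), and of 20 synaptic genes 9 rose and none fell (median 0.36). Tfap2b, an amacrine transcription factor, read 10.41, 10.55 and 10.19 in the ECFC+CD34 retinas, against 9.62, 9.77 and 9.87 in the CD34 retinas. The groups did not overlap, and the difference of 0.63 ± 0.12 (adjusted p = 0.0031) was called whichever array was left out. Dab1, the adaptor of reelin signalling found in AII amacrine cells, rose by 0.60 ± 0.11 (adjusted p = 0.0028), and Ebf3, a transcription factor, by 0.72 ± 0.16 (adjusted p = 0.0095), a call that ended without CD34 array 1 or ECFC+CD34 array 2. Calb2, the calcium-binding protein calretinin, had the largest difference of the list at 1.34 ± 0.38 (adjusted p = 0.031), but read 11.90, 11.99 and 10.83 in the ECFC+CD34 retinas, against 8.91, 11.69 and 10.10 in the CD34 retinas, so that CD34 array 2 was above ECFC+CD34 array 3. Without CD34 array 1 it was 0.68 (adjusted p = 0.22), without CD34 array 2 it was 2.07, and its call also ended without CD34 array 3 or ECFC+CD34 array 1 or 2. Vamp2, the vesicle protein of the fusion machinery, differed little but evenly: 13.46, 13.50 and 13.47 in the ECFC+CD34 retinas, against 13.26, 13.10 and 13.15 in the CD34 retinas, a rise of 0.31 ± 0.07 (adjusted p = 0.0092). Syn1 and Syn2, which tether synaptic vesicles, rose by 0.71 ± 0.17 and 0.93 ± 0.22 (adjusted p = 0.013 and 0.011), and Gria2, an AMPA receptor subunit, by 0.73 ± 0.18 (adjusted p = 0.013). The calls of Syn1, Syn2 and Gria2 ended without CD34 array 1, where Gria2 was 0.41, and without ECFC+CD34 array 1 or 2. Without CD34 array 1 the counts were 2 amacrine and 3 synaptic genes. Without ECFC+CD34 array 2 they were 2 and 1, and without ECFC+CD34 array 1 they were 3 and 2. Without CD34 array 2, 14 amacrine genes were called, and without CD34 array 3, 5. The amacrine median was 0.30 without CD34 array 1, and with the 12 arrays of P5 alone 1 amacrine and no synaptic gene was called.

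Among the 15 largest called increases with groups that did not overlap, Ntng1, a netrin that anchors presynaptic terminals, had the smallest adjusted p and read 9.26, 9.28 and 9.06 in the ECFC+CD34 retinas, against 7.24, 8.44 and 7.96 in the CD34 retinas. The ECFC+CD34 arrays lay in a narrow band above all CD34 arrays, of which array 1 was the lowest. The difference was 1.32 ± 0.19 (2.5-fold, adjusted p = 0.00031). Kcnd2, an A-type potassium channel, read 7.96, 8.06 and 7.41 in the ECFC+CD34 retinas, against 4.83, 7.35 and 6.29 in the CD34 retinas and rose by 1.65 ± 0.38 (adjusted p = 0.0094), a call that ended without CD34 array 1, where the value was 0.99, and without ECFC+CD34 array 2. Kcnip4, a calcium sensor that modulates such channels, rose by 1.19 ± 0.21 (adjusted p = 0.0013). Cacnb4, a calcium channel subunit, and Fgf12, a regulator of sodium channels, rose by 1.23 ± 0.26 and 1.13 ± 0.20 (adjusted p = 0.0052 and 0.002). The adhesion genes Pcdh10 and Cdh8 rose by 1.22 ± 0.23 and 1.18 ± 0.22 (adjusted p = 0.0026 and 0.0021). Fut9, which makes the Lewis X sugar of neural precursors, read 6.11, 6.41 and 6.04 in the ECFC+CD34 retinas, against 4.70, 5.10 and 5.02 in the CD34 retinas. Its CD34 levels lie where absent transcripts read, so its rise of 1.24 ± 0.22 (adjusted p = 0.0017) is a lower bound. Kif5a, the axonal kinesin, Rab3c, a vesicle GTPase, and Hpca, a neuronal calcium sensor, rose by 1.17 ± 0.24, 1.15 ± 0.22 and 1.16 ± 0.27 (adjusted p = 0.0042, 0.0028 and 0.011). Hpca lost its call without CD34 array 1 and without ECFC+CD34 array 1 or 2, and Hapln1, a link protein of the hyaluronan matrix (1.39 ± 0.36, adjusted p = 0.019), without any of these or CD34 array 3. Tspan2, a tetraspanin of myelinating cells, read 5.71, 8.96 and 5.61 in the ECFC+CD34 retinas, against 4.01, 5.597 and 4.57 in the CD34 retinas, and Itih3, a hyaluronan-binding chain, 5.32, 7.31 and 5.65 in the ECFC+CD34 retinas, against 4.83, 4.92 and 5.12 in the CD34 retinas. In both the size came from ECFC+CD34 array 2, the array with the myelin signal. Their differences of 2.03 ± 0.53 and 1.13 ± 0.31 (adjusted p = 0.019 and 0.024) became 0.93 and 0.53 without it (adjusted p = 0.11 and 0.17). Both calls also ended without CD34 array 1, and that of Tspan2 without CD34 array 3.

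**Figure D3:**
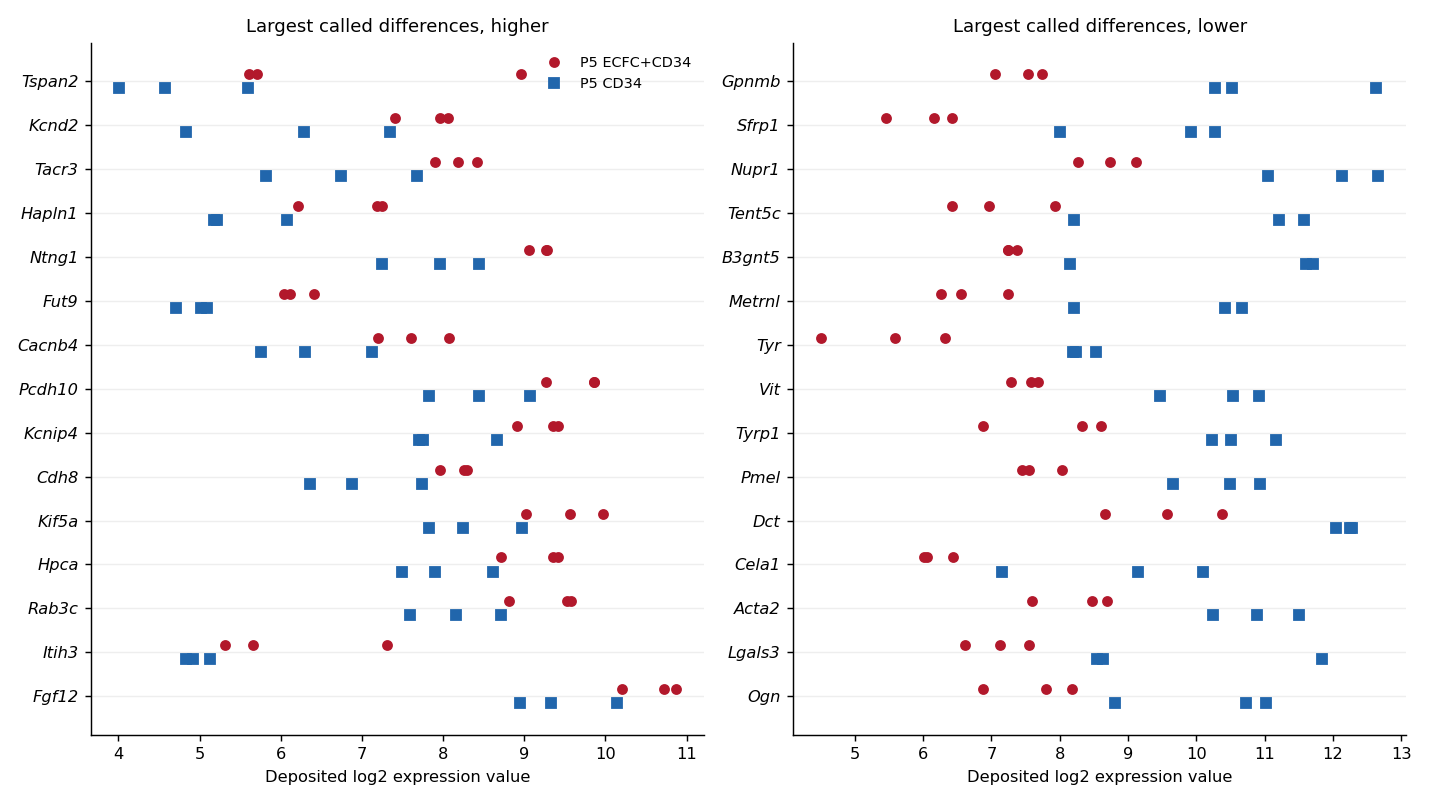
Deposited log2 values of the 15 largest called differences in each direction among genes whose groups did not overlap, with ECFC+CD34 arrays as circles and CD34 arrays as squares at P5. Decreases (right panel) are larger than increases (left panel), up to -3.69 for Gpnmb. In Metrnl, Tent5c, B3gnt5, Cela1 and Ogn 1 CD34 array lies near the ECFC+CD34 arrays.

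Of the lists described, the melanin list had the largest share of members called. Of 12 measured melanin genes 10 fell and none rose, each of the 10 with groups that did not overlap (9.99% of all genes are lower in this way), and the median was -1.08. Dct, the dopachrome tautomerase of the pathway, read 9.57, 10.38 and 8.67 in the ECFC+CD34 retinas, against 12.25, 12.28 and 12.05 in the CD34 retinas. The 3 CD34 arrays lay within a narrow band above all ECFC+CD34 arrays. The difference was -2.65 ± 0.43 (6.28-fold lower, adjusted p = 8e-04). Tyr, the tyrosinase that starts melanin synthesis, read 5.59, 6.32 and 4.51 in the ECFC+CD34 retinas, against 8.19, 8.54 and 8.24 in the CD34 retinas on the probe set with the largest difference and fell by 2.85 ± 0.46 (adjusted p = 0.00084), as did both of its other probe sets. Array 3 of the ECFC+CD34 group was at the level of absent transcripts. Tyrp1, which stabilises tyrosinase, and Pmel, the fibril protein of the melanosome, fell by 2.70 ± 0.55 and 2.69 ± 0.46 (adjusted p = 0.0042 and 0.0012). Mitf, which drives these genes, read 8.07, 8.27 and 7.36 in the ECFC+CD34 retinas, against 8.75, 9.16 and 8.86 in the CD34 retinas and fell by 1.02 ± 0.18 (adjusted p = 0.0015). Between 7 and 10 melanin genes were called when single arrays were left out, 2 with the 12 arrays of P5 alone and none with the 6 arrays compared. The list mean was 7.08, 7.32 and 6.61 in the ECFC+CD34 retinas and 8.36, 8.46 and 8.34 in the CD34 retinas, a two-sided exact permutation p of 0.1, the smallest that 3 against 3 arrays allow (0.3 after Benjamini-Hochberg adjustment over 6 sample measures). The M-box core was found in the promoters of Tyr, Tyrp1 and Dct and in none listed for Oca2, Rab27a and Mitf, which were also called lower. Whether Mitf had a part in these decreases was not tested.

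Genes of the retinal pigment epithelium, the pigmented layer that recycles retinal for the photoreceptors, fell in part. Of 15 measured, 5 fell and none rose, with a median of -1.08. Slc16a8, its lactate transporter, fell by 1.08 ± 0.23 (adjusted p = 0.0062) and Krt8, a keratin of simple epithelia, by 1.56 ± 0.27 (adjusted p = 0.0014). Rdh5, which oxidises 11-cis retinol, fell by 1.61 ± 0.46 (adjusted p = 0.033), a call that ended without CD34 array 1, CD34 array 3, ECFC+CD34 array 1 or ECFC+CD34 array 3. Rpe65, the retinoid isomerase that defines the layer, was not called: it read 8.80, 9.45 and 7.12 in the ECFC+CD34 retinas, against 10.53, 9.15 and 9.90 in the CD34 retinas, and the groups overlapped (-1.40 ± 0.75, adjusted p = 0.32). Between 3 and 9 genes of the list were called lower when single arrays were left out, with 9 lower calls without CD34 array 2 and 7 without ECFC+CD34 array 2. There were 3 lower calls without CD34 array 1, CD34 array 3 or ECFC+CD34 array 1, and without CD34 array 1 another gene of the list was called higher. With the 12 arrays of P5 alone none was called. From the 16 measured genes of the cornea, iris and ciliary epithelium 2 also fell. Aldh1a1, a retinaldehyde dehydrogenase, read 10.34, 9.67 and 9.58 in the ECFC+CD34 retinas, against 11.41, 11.42 and 11.25 in the CD34 retinas (-1.500 ± 0.19, adjusted p = 0.00014), and Perp, a p53 target and desmosome protein of epithelia, 7.37, 7.67 and 6.70 in the ECFC+CD34 retinas, against 8.62, 10.10 and 9.51 in the CD34 retinas (-2.16 ± 0.28, adjusted p = 0.00014). Neither overlapped between the groups. The part that pigmented tissue carried along with the retina had in these decreases was not tested. When the melanin list mean was added to the fit as a covariate, a setting chosen after seeing the data, no probe set was called. That mean itself separates the groups without overlap, so its part and that of the treatment cannot be told apart.

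The largest called decrease was in Gpnmb, a glycoprotein of pigment cells and of lipid-laden phagocytes. It read 7.75, 7.54 and 7.06 in the ECFC+CD34 retinas, against 12.63, 10.52 and 10.28 in the CD34 retinas. All 3 ECFC+CD34 arrays were far below the CD34 arrays, of which array 1 was the highest. The difference of -3.69 ± 0.53 amounts to 12.9-fold lower (adjusted p = 0.00038), and lay between -4.12 and -2.95 whichever array was left out. Of 35 genes of phagocyte lysosomes and lipid handling 10 fell and none rose, with a median of -0.64. In 14 all ECFC+CD34 arrays lay below the CD34 arrays (9.99% of all genes are lower in this way). Gpr137b, a lysosomal membrane protein, read 9.01, 8.96 and 8.84 in the ECFC+CD34 retinas, against 9.80, 10.24 and 10.02 in the CD34 retinas and fell by 1.09 ± 0.15 (adjusted p = 0.00018). Its probe sets may also read a near-identical pseudogene. Ctsz, a lysosomal protease, and Lipa, the lysosomal acid lipase, fell by 0.92 ± 0.21 and 0.67 ± 0.16 (adjusted p = 0.0094 and 0.014), and without CD34 array 1 the differences were -0.52 and -0.42. Lgals3, galectin-3, a lectin of activated phagocytes, read 7.12, 6.62 and 7.55 in the ECFC+CD34 retinas, against 11.85, 8.55 and 8.64 in the CD34 retinas. Its difference of -2.58 ± 0.70 (adjusted p = 0.024) rested on CD34 array 1, without which it was -1.498 (adjusted p = 0.17). Lipa also lost its call without CD34 array 1 and without ECFC+CD34 array 3, and Lgals3 without ECFC+CD34 array 1 or 2. The list count was 4 without CD34 array 1 or ECFC+CD34 array 2, 6 without ECFC+CD34 array 1 or 3, and 19 without CD34 array 2. The median was -0.28 without CD34 array 1 and -0.27 with the microglia list mean as a covariate, where 4 were called, and 1 was called with the 12 arrays of P5 alone.

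Genes of microglia and macrophages themselves gave little that passed the test. Of 29 measured, 1 fell, although 28 had a negative difference (median -0.85). That gene was Tlr2, a receptor for bacterial lipoproteins, at -0.60 ± 0.14 (adjusted p = 0.013), which was not called without CD34 array 1, at -0.37, or without ECFC+CD34 array 2. Csf1r, the receptor that microglia need to survive, read 10.65, 10.52 and 9.71 in the ECFC+CD34 retinas, against 12.15, 10.52 and 11.07 in the CD34 retinas (-0.95 ± 0.30, adjusted p = 0.057). Cx3cr1, the fractalkine receptor of resting microglia, differed by -0.21 ± 0.23 and Aif1, the microglial protein IBA1, by -0.67 ± 0.34 (adjusted p = 0.71 and 0.27). Cyba and Cybb, the membrane subunits of the phagocyte oxidase, differed by -0.87 ± 0.27 and -1.59 ± 0.53 (adjusted p = 0.051 and 0.072), Cybb being at the level of absent transcripts on the ECFC+CD34 arrays. CD34 array 1 was the highest in all of these, and the list median was -0.18 without it and -1.32 without CD34 array 2. Without CD34 array 2, 21 of the list were called lower, and without CD34 array 3, 3. With the microglia list mean as a covariate, a setting chosen after seeing the data, 976 probe sets were called, 408 of them higher. Ccl6, a chemokine of myeloid cells, read 6.46, 6.28 and 6.44 in the ECFC+CD34 retinas, against 9.28, 6.39 and 7.79 in the CD34 retinas and C2, a complement protease, 5.30, 5.54 and 5.11 in the ECFC+CD34 retinas, against 6.85, 5.95 and 5.97 in the CD34 retinas. Their decreases of 1.43 ± 0.39 and 0.94 ± 0.24 (adjusted p = 0.025 and 0.017) were not called without CD34 array 1, nor without ECFC+CD34 array 1 or 3, and that of Ccl6 also not without CD34 array 3 or ECFC+CD34 array 2. Ccl6 differed by -0.70 without CD34 array 1 and by -2.14 without CD34 array 2. Cx3cl1, the neuronal ligand of Cx3cr1, rose by 0.86 ± 0.20 (adjusted p = 0.011), a call lost without CD34 array 1 and without ECFC+CD34 array 1 or 2. No gene of the interferon, antigen presentation, neutrophil, T and NK cell, B cell or erythroid lists was called.

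Markers of glial injury fell in part. Of 27 measured genes of gliosis and retinal stress 5 fell and none rose, with a median of -1.16. S100a6, a calcium-binding protein of reactive cells, read 9.57, 10.31 and 9.92 in the ECFC+CD34 retinas, against 11.97, 12.45 and 12.15 in the CD34 retinas, with all ECFC+CD34 arrays below all CD34 arrays, and fell by 2.26 ± 0.58 (adjusted p = 0.019). Anxa2, an annexin of membrane repair, and Cd44, the hyaluronan receptor of reactive Müller cells, each fell by 1.16 (SE 0.31 and 0.33, adjusted p = 0.023 and 0.034). These calls were fragile: that of S100a6 ended without ECFC+CD34 array 1, that of Anxa2 without ECFC+CD34 array 2 or 3 or CD34 array 1, and that of Cd44 without any array except CD34 array 2. Gfap, the filament of astrocytes and reactive Müller cells, read 9.88, 11.36 and 10.33 in the ECFC+CD34 retinas, against 11.76, 8.69 and 10.95 in the CD34 retinas, and the groups overlapped fully (0.06 ± 0.72, adjusted p = 0.98). Lcn2, an iron-binding protein of acute injury, read 10.14, 6.91 and 8.30 in the ECFC+CD34 retinas, against 12.15, 6.84 and 10.79 in the CD34 retinas, with 1 low array in each group (-1.48 ± 1.13, adjusted p = 0.54). The list count was 2 without CD34 array 1, 14 without CD34 array 2, 3 without CD34 array 3, 2 without ECFC+CD34 array 1 and 1 without ECFC+CD34 array 2. The median was -0.53 without CD34 array 1, -0.48 without that array and ECFC+CD34 array 2 and -0.26 with the microglia list mean as a covariate, and no gene was called without both arrays, with that covariate or with the 12 arrays of P5 alone. Among Müller cell genes Aqp4, the water channel of glial endfeet, rose by 0.57 ± 0.17 and Clu, a secreted chaperone, fell by 0.40 ± 0.11 (adjusted p = 0.035 and 0.02), out of 23 measured. Both lost their calls without CD34 array 1, without ECFC+CD34 array 1 and without ECFC+CD34 array 2. Aqp4 also lost it without CD34 array 2 or 3, and Clu without ECFC+CD34 array 3. Rlbp1, which carries retinoids in Müller cells, differed by 0.19 ± 0.15 (adjusted p = 0.55).

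Of the stress and detoxification genes a minority was called, all lower. Of 24 antioxidant and glutathione genes 8 fell and none rose (median -0.47). In 12 all ECFC+CD34 arrays lay below the CD34 arrays (9.99% of all genes are lower in this way). Nqo1, a quinone reductase, read 7.67, 7.85 and 7.02 in the ECFC+CD34 retinas, against 8.73, 8.22 and 8.46 in the CD34 retinas and fell by 0.96 ± 0.18 (adjusted p = 0.0028). Gpx1, a glutathione peroxidase, fell by 0.57 ± 0.12, and the glutathione transferases Gstm1 and Gstm2 by 1.22 ± 0.22 and 1.30 ± 0.30 (adjusted p = 0.0065, 0.0018 and 0.011). Gstm2 was not called without ECFC+CD34 array 2, the list count was 4 without ECFC+CD34 array 2 or 3, and it was 0 with the 12 arrays of P5 alone. Of 23 genes of p53 and apoptosis 7 fell and none rose (median -0.23). Fas, a death receptor, read 4.66, 4.40 and 4.65 in the ECFC+CD34 retinas, against 5.17, 5.88 and 6.16 in the CD34 retinas. Its ECFC+CD34 levels are those of absent transcripts, so the difference of -1.17 ± 0.19 (adjusted p = 0.00099) is a lower bound on the decrease. Gadd45b, a stress sensor, fell by 1.82 ± 0.44 (adjusted p = 0.013), a call lost without ECFC+CD34 array 1 or 2. Bcl2, which opposes apoptosis, fell too, by 0.53 ± 0.14 (adjusted p = 0.018), a call lost without ECFC+CD34 array 3. The list count ran from 3 to 6 when single arrays were left out, was 3 without any of the ECFC+CD34 arrays, and was 1 with the 12 arrays of P5 alone.

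Of 25 genes of the unfolded protein and integrated stress responses 5 fell and none rose (median -0.25). Pdia6, a disulfide isomerase of the endoplasmic reticulum, read 10.13, 10.23 and 10.06 in the ECFC+CD34 retinas, against 10.75, 10.72 and 10.82 in the CD34 retinas. The groups did not overlap and the arrays within each were close. Its fall of 0.63 ± 0.12 (adjusted p = 0.0026) was called whichever array was left out. Slc7a5, an amino acid transporter induced by ATF4, fell by 0.63 ± 0.11, and Phgdh, the first enzyme of serine synthesis, by 1.34 ± 0.26 (adjusted p = 0.0012 and 0.0028). Ppp1r15a, the phosphatase subunit that ends the response, fell by 1.25 ± 0.29 (adjusted p = 0.011), a call lost without ECFC+CD34 array 2, and without CD34 array 2 it was -0.63. Nupr1, a chromatin protein induced by many stresses, had one of the larger decreases of the whole contrast: 8.73, 8.27 and 9.12 in the ECFC+CD34 retinas, against 11.06, 12.66 and 12.14 in the CD34 retinas, without overlap (-3.25 ± 0.66, 9.48-fold lower, adjusted p = 0.0042). The count of the stress response list was 8 without CD34 array 2, 3 without ECFC+CD34 array 2 and 1 with the 12 arrays of P5 alone. Its median was -0.12 without CD34 array 1 and -0.38 without CD34 array 2. Of 22 immediate early genes 3 fell, Egr1 by 1.25 ± 0.37, Zfp36 by 0.57 ± 0.17 and Ccn1 by 1.18 ± 0.35 (adjusted p = 0.041, 0.045 and 0.04). Each of these 3 calls ended without CD34 array 1 and without ECFC+CD34 array 1 or 2, those of Egr1 and Ccn1 also without CD34 array 3, and that of Zfp36 without ECFC+CD34 array 3. Without CD34 array 1 Zfp36 was -0.33 and Ccn1 -0.77. Of 31 cell cycle genes 3 fell: Rrm2, a subunit of ribonucleotide reductase, by 1.18 ± 0.30, Birc5, survivin, by 0.86 ± 0.22, and the mitotic kinase Cdk1 by 0.62 ± 0.15 (adjusted p = 0.018, 0.017 and 0.015). These calls ended without CD34 array 1 and without ECFC+CD34 array 1, and those of Birc5 and Cdk1 also without ECFC+CD34 array 2.

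A minority of matrix genes was called, all lower. Of 30 stromal and fibrosis matrix genes 6 fell and none rose (median -0.60), and of 25 basement membrane genes 5 fell and none rose (median -0.55). Loxl1, a crosslinker of elastin, read 8.45, 8.04 and 7.74 in the ECFC+CD34 retinas, against 9.73, 9.47 and 8.98 in the CD34 retinas and fell by 1.32 ± 0.27 (adjusted p = 0.0051). Ogn, the small proteoglycan osteoglycin, read 8.19, 7.79 and 6.88 in the ECFC+CD34 retinas, against 8.81, 11.02 and 10.73 in the CD34 retinas. Its CD34 array 1 was close to the ECFC+CD34 arrays, and the difference was -2.57 ± 0.58 (adjusted p = 0.0089). Bgn, biglycan, Thbs2, an antiangiogenic thrombospondin, and Timp3, an inhibitor of metalloproteinases, fell by 1.07 ± 0.27, 1.01 ± 0.25 and 0.69 ± 0.19 (adjusted p = 0.017, 0.015 and 0.029). All 3 lost their calls without ECFC+CD34 array 3, Bgn and Timp3 also without CD34 array 1, where Bgn was -0.67, and Timp3 without ECFC+CD34 array 1 or 2. Among collagens of the basement membrane Col4a3, of the network found in lens capsule and Bruch's membrane, read 7.44, 7.84 and 7.33 in the ECFC+CD34 retinas, against 8.24, 10.01 and 9.51 in the CD34 retinas and fell by 1.72 ± 0.32 (adjusted p = 0.0026). Col4a5 of the same network fell by 1.32 ± 0.29, and Col4a1 of the common network by 0.96 ± 0.24 (adjusted p = 0.0073 and 0.017). Col4a1 was not called without CD34 array 2, at -0.63, nor without CD34 array 3 or ECFC+CD34 array 2. Counts of lower calls in both lists lay between 3 and 9 when single arrays were left out: matrix had 9 without CD34 array 2 and 3 without any ECFC+CD34 array, and basement membrane had 8 without CD34 array 1, 3 without CD34 array 2 and 3 without ECFC+CD34 array 3. Without CD34 array 2 a basement membrane gene was also called higher. The stromal median was -0.40 without CD34 array 1 and -0.30 with the microglia covariate, and neither list had a call with the 12 arrays of P5 alone.

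A further set of large decreases was widest against the CD34 arrays that carried the lens signal. Sfrp1, a secreted antagonist of Wnt ligands, read 6.15, 6.43 and 5.45 in the ECFC+CD34 retinas, against 8.01, 10.27 and 9.93 in the CD34 retinas (-3.39 ± 0.47, 10.5-fold lower, adjusted p = 0.00024). All 4 of its probe sets were called. Vit, a matrix protein of the eye, read 7.69, 7.28 and 7.58 in the ECFC+CD34 retinas, against 9.46, 10.91 and 10.54 in the CD34 retinas (-2.79 ± 0.36, adjusted p = 0.00014). In both, CD34 array 1 was the lowest of its group and still above every ECFC+CD34 array. Metrnl, a secreted neurotrophic factor, read 7.24, 6.56 and 6.26 in the ECFC+CD34 retinas, against 8.21, 10.67 and 10.42 in the CD34 retinas (-3.08 ± 0.47, adjusted p = 0.00052). B3gnt5, which extends the sugars of lacto-series glycolipids, read 7.38, 7.24 and 7.24 in the ECFC+CD34 retinas, against 8.16, 11.71 and 11.61 in the CD34 retinas, and Tent5c, a poly(A) polymerase, 7.94, 6.97 and 6.43 in the ECFC+CD34 retinas, against 8.20, 11.58 and 11.22 in the CD34 retinas. Their differences were -3.21 ± 0.62 and -3.22 ± 0.62 (adjusted p = 0.0032 and 0.003), and Cela1, an elastase, differed by -2.63 ± 0.51 (adjusted p = 0.0034). In Metrnl, B3gnt5, Tent5c and Cela1 CD34 arrays 2 and 3, the arrays with the lens signal, were far above CD34 array 1. When the mean of the lens genes entered the fit the differences were -2.83 for Sfrp1, -2.42 for Vit, -2.46 for Metrnl, -2.35 for B3gnt5 and -2.34 for Tent5c, each still called, as were 96 of the 98 called genes that are named. None of the 16 lens genes was called, although all 16 had a negative difference (median -1.63). That median was -3.85 without CD34 array 1, -0.44 without CD34 array 2, -0.46 without CD34 array 3, -2.84 without ECFC+CD34 array 1 and -0.91 without ECFC+CD34 array 3. Mip, the water channel of lens fibres, read 7.60, 5.43 and 5.66 in the ECFC+CD34 retinas, against 5.17, 12.35 and 12.25 in the CD34 retinas, Gja3, their connexin, 7.82, 6.08 and 6.55 in the ECFC+CD34 retinas, against 5.91, 12.46 and 12.20 in the CD34 retinas, and Cryaa, their main crystallin, 12.85, 9.02 and 8.96 in the ECFC+CD34 retinas, against 7.17, 14.20 and 14.16 in the CD34 retinas. The groups overlapped, CD34 array 1 being low (-3.69 ± 1.25, -3.37 ± 1.08 and -1.57 ± 1.31, adjusted p = 0.076, 0.06 and 0.59). Without that array 11 lens genes were called lower, with Mip at -6.07 and Gja3 at -5.51.

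The vascular genes that the study is about gave few calls. Over all genes 4.15% were called higher and 3.46% lower, so lists this short cannot show fewer calls than other genes. None of 21 tip cell and sprouting genes and none of 10 VEGF ligands and receptors was called, with medians of -0.17 and 0.12. Vegfa, the main growth factor of hypoxic vessels, read 9.99, 9.98 and 10.09 in the ECFC+CD34 retinas, against 10.74, 9.76 and 10.002 in the CD34 retinas. CD34 array 1 was the highest of the 6, and the groups overlapped (-0.14 ± 0.18, adjusted p = 0.76). Angpt2, which loosens the contact of mural cells, differed by -0.21 ± 0.31, the tip cell ligand Apln by -0.40 ± 0.35 and the vasodilator Adm by -0.92 ± 0.39 (adjusted p = 0.8, 0.61 and 0.17). Esm1, a tip cell proteoglycan, read 3.87, 4.07 and 4.45 in the ECFC+CD34 retinas, against 6.16, 5.39 and 4.61 in the CD34 retinas (-1.26 ± 0.48, adjusted p = 0.12), and all ECFC+CD34 arrays were at the level of absent transcripts. Of 27 endothelial genes 1 was called. This was Plvap, the diaphragm protein of fenestrated and leaky vessels, at 6.95, 7.01 and 7.08 in the ECFC+CD34 retinas, against 8.20, 8.07 and 7.50 in the CD34 retinas. Every ECFC+CD34 array was below every CD34 array, and Plvap fell by 0.91 ± 0.17 (1.88-fold lower, adjusted p = 0.0023). It was called whichever array was left out. The part that vessels of tissue carried along with the retina had in this decrease was not tested. With the melanin list mean as a covariate, where no probe set was called, Plvap differed by -0.81 (adjusted p = 0.27). The junction genes Pecam1 and Cdh5 differed by 0.25 ± 0.17 and -0.13 ± 0.19 (adjusted p = 0.48 and 0.81).

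Pericyte genes, the subject of the series, differed in both directions, with few calls, near the shares over all genes. Of 23 measured mural cell genes 1 rose and 1 fell, the median was 0.01, and the members not called lay between -0.92 and 0.64. Of these, Notch3, a receptor of mural cells, differed by -0.42 ± 0.15 (adjusted p = 0.088) and Tbx2, a transcription factor, by 0.40 ± 0.13 (adjusted p = 0.072), both with groups that did not overlap. In the whole list the groups did not overlap in 1 gene that was higher and 3 that were lower. Over all genes 10.2% were higher and 9.99% lower in this way. Pdgfrb, the receptor that holds pericytes on vessels, read 9.01, 9.13 and 8.76 in the ECFC+CD34 retinas, against 8.29, 9.35 and 8.91 in the CD34 retinas (0.12 ± 0.17, adjusted p = 0.8). Rgs5, a regulator of G protein signalling in pericytes, read 11.97, 11.83 and 11.87 in the ECFC+CD34 retinas, against 11.32, 12.39 and 11.79 in the CD34 retinas (0.06 ± 0.16, adjusted p = 0.92). Cspg4, the pericyte proteoglycan NG2, differed by 0.01 ± 0.18, and Pdgfb, the endothelial ligand that recruits pericytes, by less than 0.01, with an SE of 0.17 (adjusted p = 0.99 and 1). In these 4 genes the CD34 arrays spanned the ECFC+CD34 mean. Acta2, the actin of smooth muscle and of contractile pericytes, was the member that fell: it read 8.69, 8.48 and 7.60 in the ECFC+CD34 retinas, against 10.25, 11.51 and 10.90 in the CD34 retinas. The groups did not overlap, and the difference was -2.63 ± 0.48 (6.18-fold lower, adjusted p = 0.0022). The smooth muscle of the iris and ciliary body also makes this actin, and its part was not tested. Rgs4, which retinal neurons also express, was the member that rose, by 1.49 ± 0.43 (adjusted p = 0.033). It read 10.70, 10.77 and 9.89 in the ECFC+CD34 retinas, against 7.31, 10.64 and 8.95 in the CD34 retinas, with CD34 array 2 above ECFC+CD34 array 3, and without CD34 array 1 it was 0.67 (adjusted p = 0.22). Without CD34 array 2 it was 2.33, and it was not called without CD34 array 3 or ECFC+CD34 array 1 or 2. Of 29 genes of pericyte recruitment and vessel stabilisation 1 was called, Tgfb1, the growth factor that drives mural cell differentiation. It fell by 0.77 ± 0.21 (adjusted p = 0.025), a call lost without CD34 array 1, at -0.40, and without ECFC+CD34 array 2 or 3.

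Of 34 HIF targets and glycolysis genes 4 fell and none rose (median -0.13). Car9, the carbonic anhydrase induced by hypoxia, read 5.25, 4.82 and 5.20 in the ECFC+CD34 retinas, against 8.63, 5.97 and 5.97 in the CD34 retinas. CD34 array 1 set most of its difference of -1.77 ± 0.45 (adjusted p = 0.018), which was -0.88 without that array (adjusted p = 0.099), and it was not called without ECFC+CD34 array 2 either. P4ha1, a prolyl hydroxylase of collagen, read 10.01, 10.04 and 10.21 in the ECFC+CD34 retinas, against 10.44, 10.85 and 11.24 in the CD34 retinas and fell by 0.76 ± 0.14 (adjusted p = 0.0026), called whichever array was left out. P4ha2, of the same family, fell by 0.78 ± 0.19 and Car12, which the pigment epithelium also makes, by 1.53 ± 0.46 (adjusted p = 0.012 and 0.041). P4ha2 was not called without CD34 array 2 or ECFC+CD34 array 1 or 2, and Car12 not without CD34 array 1 or 3 or ECFC+CD34 array 1 or 3.

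Photoreceptor genes gave 1 call. Of 26 rod genes 1 rose and none fell, although 23 had a positive difference (median 0.12), and none of 13 cone genes was called (median 0.09). Rdh12, which reduces retinal in photoreceptors, rose by 0.27 ± 0.08 (adjusted p = 0.046), a call that, of the single arrays left out, survived only the loss of CD34 array 1. Pde6g, the inhibitory subunit of the rod phosphodiesterase, read 14.26, 14.24 and 14.34 in the ECFC+CD34 retinas, against 14.24, 13.79 and 13.99 in the CD34 retinas (0.27 ± 0.09, adjusted p = 0.073), and Opn1sw, the short-wave cone opsin, differed by 0.13 ± 0.16 (adjusted p = 0.75). Of 21 genes of sterol synthesis and lipid carriers 6 rose and 1, Clu, fell (median 0.28). Srebf2, the transcription factor of the pathway, rose by 0.74 ± 0.18, Fdps, which makes farnesyl diphosphate, by 0.68 ± 0.19, and Fasn, the fatty acid synthase, by 0.53 ± 0.15 (adjusted p = 0.015, 0.026 and 0.026). All 3 lost their calls without CD34 array 1 and without ECFC+CD34 array 1 or 2, and the list count was 0 without CD34 array 1 or ECFC+CD34 array 2, 1 without ECFC+CD34 array 1 and 3, of which 1 was lower, without CD34 array 3. The median was 0.46 without CD34 array 2 and 0.18 without ECFC+CD34 array 2. Srebf2 and Fdps also lost theirs without CD34 array 3. Myelin genes were not called, though all 12 had a positive difference. Ugt8a, which makes galactosylceramide, read 5.17, 10.47 and 5.28 in the ECFC+CD34 retinas, against 4.38, 5.04 and 4.71 in the CD34 retinas, and Cldn11, a tight junction protein of myelin, 4.57, 10.33 and 5.86 in the ECFC+CD34 retinas, against 4.38, 5.58 and 4.15 in the CD34 retinas. The high value in both was ECFC+CD34 array 2, without which they differed by 0.52 and 0.51 (adjusted p = 0.25 and 0.55).

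The other P5 groups place the contrast. Fits against P5 saline share its 3 saline arrays, and each shares arrays with the contrast above, so their values are only set side by side. The combination differed from saline in 1 of 22626 probe sets (0.00442%) and from ECFC alone in none (0%), although 1823 and 284 had an unadjusted p under 0.05. ECFC alone differed from saline in 1 (0.00442%). CD34+ cells alone differed from saline in 1814 (8.02%), 627 of them higher and 1187 lower. Gpnmb differed from saline by -0.78 ± 0.53 in the combination and by 2.91 ± 0.53 with CD34+ cells alone (adjusted p = 0.76 and 0.0027). Ntng1 differed from saline by 0.18 ± 0.19 in the combination and by -1.14 ± 0.19 with CD34+ cells alone (adjusted p = 0.87 and 0.0014), and Slc17a6 by -0.14 ± 0.59 and -2.85 ± 0.59 (adjusted p = 0.98 and 0.0049). Pdia6 differed by 0.25 ± 0.12 and 0.88 ± 0.12 (adjusted p = 0.6 and 0.00028). Sfrp1 differed from saline by -1.93 ± 0.47 in the combination and by 1.46 ± 0.47 with CD34+ cells alone (adjusted p = 0.23 and 0.055). The saline arrays themselves read 8.19, 8.86 and 6.79 for Sfrp1 and 12.91, 12.48 and 10.15 in the lens list mean. Untreated OIR retinas, by comparison, read 5.78, 5.996 and 6.02 for Sfrp1 and 6.72, 6.66 and 8.07 for Gpnmb, which overlaps the ECFC+CD34 arrays in both. Age at collection may differ between the untreated retinas and those injected at P5.

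**Figure D4:**
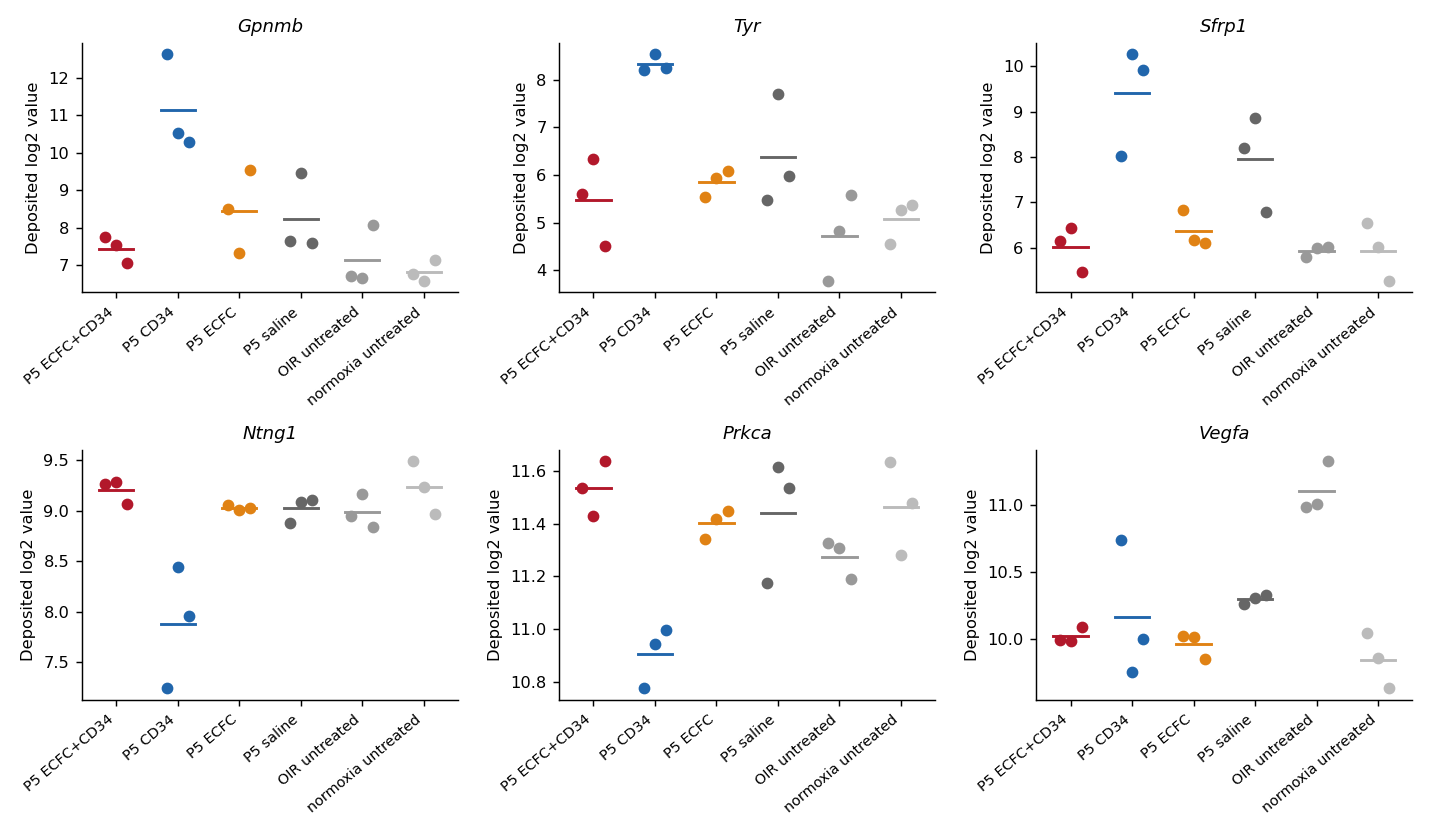
Deposited log2 values of 6 genes on each array (points) with group means (lines), for the 4 groups injected at P5, untreated OIR and untreated normoxia. All 3 CD34 arrays lie above every other array shown for Gpnmb and Tyr and below every other for Ntng1 and Prkca, saline arrays reach the CD34 range for Sfrp1, and for Vegfa the ECFC+CD34 and CD34 groups overlap below untreated OIR. Untreated and injected retinas may differ in age at collection.

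The same pair of treatments injected at P12, when pups leave high oxygen, gave no called probe set (0% of 22626), although 926 had an unadjusted p under 0.05. The test of the difference between the P5 and the P12 contrasts called 145 probe sets (0.641%), 111 with a higher and 34 with a lower difference at P5. If retinas injected at P5 were collected at P12, age and injection day cannot be told apart in this test. Gpnmb at P12 read 7.34, 6.98 and 7.08 in the ECFC+CD34 retinas and 7.07, 7.22 and 7.15 in the CD34 retinas, a difference of -0.01 ± 0.53, and the P5 minus the P12 contrast was -3.68 ± 0.75 (adjusted p = 0.035). Tyr at P12 differed by 0.26 ± 0.46 and Metrnl by 0.19 ± 0.47, and their P5 minus P12 contrasts were -3.12 ± 0.66 and -3.27 ± 0.67 (adjusted p = 0.037 and 0.034). On the neuronal side, Prkca at P12 read 11.53, 11.52 and 11.38 in the ECFC+CD34 retinas and 11.55, 11.62 and 11.58 in the CD34 retinas. Its P5 contrast was 0.73 ± 0.14 above the P12 one (adjusted p = 0.033), and that of Ntng1 was 1.36 ± 0.26 above (adjusted p = 0.032). The largest upward differences among called probe sets that name a gene were in Kcnd2, on a probe set other than the one above, and in Cdh10, a cadherin of retinal circuits. They were 2.04 ± 0.44 and 1.502 ± 0.34 (adjusted p = 0.037 and 0.042). The count of 145 depended on single arrays. It was 0 without P12 ECFC+CD34 array 3 or P12 CD34 array 2, 11 without P5 ECFC+CD34 array 1, 12 without P5 ECFC+CD34 array 2, 17 without P12 CD34 array 3 and 709 without P5 CD34 array 2. The other leave-outs that moved it by more than 1.5-fold gave 320 without P5 ECFC+CD34 array 3, 391 without P5 CD34 array 1, 23 without P5 CD34 array 3, 57 and 68 without P12 ECFC+CD34 arrays 1 and 2, and 61 without P12 CD34 array 1.

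**Figure D5:**
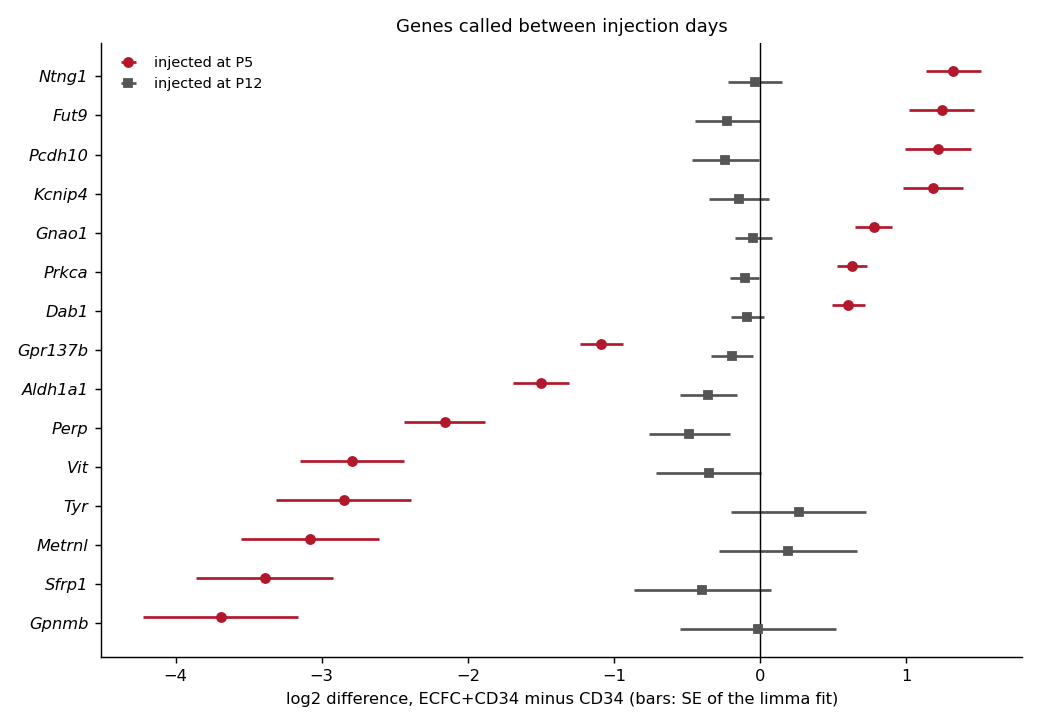
Differences of ECFC+CD34 minus CD34 on the log2 scale (points) ± SE of the limma fit (bars) for the 15 named genes whose difference was called between injection days, at P5 (circles) and at P12 (squares). At P5 the genes lie on both sides of 0, from -3.69 to 1.32, and at P12 they lie between -0.48 and 0.26.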

How the data were processed

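Expression was measured on Affymetrix arrays, 1 mouse retina per array, in 30 retinas. The deposited table holds log2 values per probe set that the authors made; the submitters' processing notes name Partek, and background correction, normalization and summarisation are not described in these sources. Arrays give no counts, so the number of arrays limits the precision.

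Groups were taken from the sample titles. Of 22690 probe sets 64 controls were left out. The values were used as deposited in limma 3.58.1 (R 4.3.3), with 1 mean per group over all 30 arrays, lmFit and eBayes, Benjamini-Hochberg adjustment over 22626 probe sets and a threshold of 0.05; figures used matplotlib 3.10.9. Gene names come from GEO's platform annotation, probe sets with several symbols being unnamed. Genes named are the 15 largest called differences in each direction whose groups did not overlap, up to 4 members of each described list with the largest absolute moderated t, fixed vascular, glial and tissue genes, and the largest called differences of the other contrasts. Members and lists were chosen with earlier results of these data known. Alternatives were other scalings, filters, variance models, array subsets, arrays left out, covariates and the replicate number as a block. The statistics were tested on simulated data with the same spread in every group, which does not test the fit where the spreads of groups differ.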

Additional observations from a re-analysis of the deposited data

Results flagged for a closer look

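For 15 of the genes named above the contrast of ECFC+CD34 minus CD34 was called different between injection at P5 and injection at P12. The test was limma's on the difference between the contrasts, with Benjamini-Hochberg adjustment over 22626 probe sets. In 7 genes of neurons the contrast was higher at P5 than at P12, in log2 units by 0.69 ± 0.16 for Dab1 (adjusted p = 0.048), 0.82 ± 0.17 for Gnao1 (adjusted p = 0.037), 0.73 ± 0.14 for Prkca (adjusted p = 0.033) and 1.36 ± 0.26 for Ntng1 (adjusted p = 0.032). The other neuronal genes had differences of 1.47 ± 0.31 for Fut9 (adjusted p = 0.037), 1.46 ± 0.32 for Pcdh10 (adjusted p = 0.039) and 1.33 ± 0.29 for Kcnip4 (adjusted p = 0.038). In 8 genes the contrast was lower at P5. The pigment and lysosome genes among them differed by -3.68 ± 0.75 for Gpnmb (adjusted p = 0.035), -3.12 ± 0.66 for Tyr (adjusted p = 0.037) and -0.90 ± 0.20 for Gpr137b (adjusted p = 0.045). The secreted and epithelial genes differed by -3.00 ± 0.66 for Sfrp1 (adjusted p = 0.039), -3.27 ± 0.67 for Metrnl (adjusted p = 0.034), -2.44 ± 0.51 for Vit (adjusted p = 0.035), -1.15 ± 0.27 for Aldh1a1 (adjusted p = 0.049) and -1.67 ± 0.39 for Perp (adjusted p = 0.047). The contrasts of the 15 genes at P12 lay between -0.48 and 0.26, with none called. All adjusted p-values lie between 0.032 and 0.049, close to the threshold, and 0.641% of all probe sets were called in this test. Many of these genes were named for their P5 differences, and the test uses the same P5 arrays: 144 of its 145 calls were also called at P5. No probe set was called without P12 ECFC+CD34 array 3 or without P12 CD34 array 2, so none of the 15 calls survived either loss. Age at collection may also differ between the injection days.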

How the results depend on the processing

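For the P5 contrast the count of 1659 called probe sets became 1890 under quantile normalization and likewise under median centring, 1696 without the dimmest probe sets, 1776 with a trended robust variance, 2195, 2324 and 1477 with the lens list, the hybridisation controls or Xist as covariate, 970 with 1 probe set per gene and 1000 with a minimum of 1.5-fold. It was 5023 with array weights, 113 among the 12 arrays injected at P5, 0 among the 6 arrays compared, and 617 to 2109 without single arrays. Among settings chosen after seeing the data it was 0 with the melanin list and 976 with the microglia list as covariate, and 735 without CD34 array 1 and ECFC+CD34 array 2. The P12 count of 0 became 4 with array weights and lay at 0 to 1 without single arrays. The count of 145 between the injection days was 74 after quantile normalization, 78 with 1 probe set per gene, 3233 with array weights, 0 among the arrays of the groups compared, 541, 292 and 49 with the lens list, hybridisation control and Xist covariates, and 0 to 709 without single arrays. With the replicate number as a block the counts were 1806 at P5, 0 at P12 and 199 between days. Deviations of same-numbered arrays did not correlate over 0.1 in every pair (r = -0.239, 0.189 and 0.159 at P5 and -0.408, 0.244 and -0.166 at P12), so the number was not used as a pairing. Deviations from means of 3 arrays cannot exclude that same-numbered arrays shared some handling. Of the 125 genes named 18 changed sign under some setting, none with an adjusted p under 0.05 there by limma, and 3 of them, Tyrp1, Rdh5 and C2, were called as deposited. Turned values were 0.0029 for Pdgfb after quantile normalization, 0.015 for Cx3cr1, -0.46 for Gfap and 0.28 for Cdh5 with array weights, -0.28 for Gfap and 0.50 for Cryaa with the lens covariate and -0.00094 for Cspg4 with the Xist covariate. With the melanin covariate they were 0.82 for Tyrp1, 0.25 for Rdh5, 1.48 for Rpe65, -0.46 for Gfap, 0.41 for Angpt2, 0.027 for Pdgfb, -0.0028 for Pecam1, 0.37 for Cdh5, -0.61 for Opn1sw and 0.14 for C2. With the microglia covariate they were 0.30 for Cx3cr1, 0.0065 for Aif1, 0.63 for Lcn2, 0.0905 for Vegfa, 0.013 for Pdgfb, -0.10 for Pdgfrb, -0.22 for Rgs5, -0.17 for Cspg4 and -0.026 for Pecam1. Without both arrays they were 0.082 for Cx3cr1, 0.40 for Lcn2, 0.16 for Vegfa, 0.026 for Pdgfb, -0.24 for Pdgfrb, -0.17 for Rgs5 and -0.17 for Cspg4. Without single arrays the ranges of those that turned were -0.069 to 0.037 for Pdgfb, -0.11 to 0.22 for Cspg4, -0.83 to 0.70 for Gfap, -0.32 to 0.11 for Cdh5, -0.53 to 0.17 for Cx3cr1, -0.35 to 0.14 for Vegfa, -0.16 to 0.37 for Pdgfrb and -0.20 to 0.33 for Rgs5. The cause of these changes was not tested, apart from the fewer probe sets or arrays that some settings use.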
